A study of Homo sapiens with 6 samples.

Results

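The genes described here encode GPAT3 and the other enzymes that build triglyceride from glycerol-3-phosphate: the glycerol-3-phosphate acyltransferases GPAM, GPAT2, GPAT3 and GPAT4, the lysophosphatidic acid acyltransferases AGPAT1, AGPAT2 and AGPAT3, the phosphatidic acid phosphatase LPIN1, and the diacylglycerol acyltransferases DGAT1 and DGAT2. They are 10 of the 22438 genes tested, and every probe on the array whose RefSeq accession maps to one of them was taken, 15 probes in all. The family was chosen because GPAT3 differed between these same arrays, so values for its members are a description and carry no test. Total RNA came from AGS cells, an established human gastric adenocarcinoma line, grown in RPMI medium with serum and collected 48 h after transfection. The si-control cells received a nontargeting siRNA and the si-C1GALT1-3 cells a single siRNA against C1GALT1, the enzyme that adds galactose to O-linked GalNAc to form the core 1 O-glycan. Each group held 3 samples, with 1 array per sample. With only 1 siRNA against C1GALT1, effects of its target and of its own sequence cannot be told apart.

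Glycerol-3-phosphate acyltransferases attach a fatty acid to the sn-1 position of glycerol-3-phosphate, the step that commits fatty acids to glycerolipids. AGPAT enzymes add a fatty acid at sn-2 to give phosphatidic acid, lipins remove the phosphate to give diacylglycerol, and DGAT enzymes add the last fatty acid to give triglyceride, which cells store in lipid droplets. Phosphatidic acid and diacylglycerol also feed the synthesis of membrane phospholipids. GPAT3 and GPAT4 act in the endoplasmic reticulum, whereas GPAM and GPAT2 lie in the outer mitochondrial membrane, and GPAT3 is best known from adipocytes, where it rises as the cells differentiate.

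On the 6 arrays, between 66.2% and 72.7% of gene spots were well above background and 0 were saturated. The si-control replicate 2 array had a rectangular region of low signal, where its spots lay at a median log2 deviation of -2.19 from the other si-control arrays, against -0.0587 outside. Its 9712 spots, 15.9% of the gene spots of that array, were set to missing, and a member measured there therefore rests on 2 si-control arrays. C1GALT1 itself had a normalized log2 signal of 12.22, 13.03 and 12.62 on the si-control arrays and 11.76, 11.98 and 11.13 on the si-C1GALT1-3 arrays. The siRNA target was thus lower on every knockdown array, with a log2 fold change of -1.0 (SE 0.31; limma, adjusted p = 0.265), and did not pass the call used here, p under 0.01 with at least a 2-fold difference. Of 5 epithelial markers, 5 were well above background on all arrays, with summed normalized signals, each on the linear scale, of 428900 to 656800 in si-control and 341500 to 593900 in si-C1GALT1-3 cells. Adipocyte markers summed to between 852 and 1035 in si-control and between 902.9 and 990 in si-C1GALT1-3 cells, with 2 of 5 well above background on all arrays and the adipocyte hormone LEP on none. Leukocyte markers summed to 12940 to 21340 against 12530 to 13930 over the 4 of 5 genes with a probe, and the 5 probes of PTPRC, the leukocyte surface phosphatase, disagreed, with mean normalized log2 signals from 3.31 to 13.8 and 2 of them higher by the call. Fibroblast and endothelial markers summed to 2948 and 2354 on si-control replicates 1 and 3 and to 2514 to 3277 in si-C1GALT1-3 cells, with 3 of 5 well above background wherever read and COL1A2 on none. On si-control replicate 2 only 3 of these genes were read, because COL1A1 and VWF lay in the low-signal region, and they summed to 1044. No gene of these marker lists passed the call on its brightest probe, and the part of other cell types in the results below was not tested.

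GPAT3 was the member with the lowest value after knockdown relative to control. Its single probe, A_23_P69810, had a normalized log2 signal of 9.77, 9.61 and 9.18 on the si-control arrays and of 6.45, 6.85 and 7.43 on the si-C1GALT1-3 arrays. All 3 control arrays lay far above all 3 knockdown arrays, and the spread within a group was small beside the distance between groups. The means were 9.52 ± 0.30 (SD, n = 3) and 6.91 ± 0.49 (SD, n = 3), a log2 fold change of -2.61 (SE 0.30), so that the normalized signal in si-C1GALT1-3 cells was 16.3% of that in si-control cells, 6.12-fold lower. The difference was 6.39 times the pooled SD of the groups. The highest control and the lowest knockdown array were both replicate 1.

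The same was visible in the scanner values before normalization. The processed signal of the GPAT3 spot was 1102, 749.8 and 419.8 in si-control and 103.9, 134.2 and 136.6 in si-C1GALT1-3 cells. The ratio of the spot to its local background was 26.6, 18.7 and 13.5 in si-control against 3.15, 4.77 and 5.88 in si-C1GALT1-3 cells. The knockdown spots were thus dim but still well above background by the scanner software on all 3 arrays, and the spot lay outside the low-signal region. Arrays of the same replicate number shared a slide, and within slides 1, 2 and 3 the normalized log2 signal was lower in si-C1GALT1-3 cells by differences of -3.32, -2.76 and -1.76. Every control array was in the same column of its slide and every knockdown array in the neighbouring one, so that array position and treatment cannot be told apart. Among the 233 genes that were lower by the call and well above background on all arrays read, GPAT3 stood at rank 4 by log2 fold change, next after SFTPD, a surfactant protein, at -2.63 (SE 0.23). Over all genes, 10 had a log2 fold change below that of GPAT3. Since GPAT3 was chosen from this contrast, its rank is only a description.

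The array has 1 probe for GPAT3, and 3 upstream sequences are shown so that the promoter of the gene that was lowest can be set beside that of AGPAT2, which was also lower on every knockdown array, and that of GPAM, which was higher on every one. Each is the 250 bases before an annotated start, from RefSeq on GRCh38.p14, and capitals mark GC boxes, GGGCGG or its reverse complement CCGCCC. The GPAT3 stretch is chr4:83535858-83536107 on the plus strand, that of AGPAT2 is chr9:136687458-136687707 on the minus strand, and that of GPAM is chr10:112183766-112184015 on the minus strand.
GPAT3: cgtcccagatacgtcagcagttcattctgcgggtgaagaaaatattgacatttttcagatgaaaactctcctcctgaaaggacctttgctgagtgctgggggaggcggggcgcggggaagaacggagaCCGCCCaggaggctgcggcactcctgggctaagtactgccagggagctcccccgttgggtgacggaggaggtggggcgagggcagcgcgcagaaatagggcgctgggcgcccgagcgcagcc
AGPAT2: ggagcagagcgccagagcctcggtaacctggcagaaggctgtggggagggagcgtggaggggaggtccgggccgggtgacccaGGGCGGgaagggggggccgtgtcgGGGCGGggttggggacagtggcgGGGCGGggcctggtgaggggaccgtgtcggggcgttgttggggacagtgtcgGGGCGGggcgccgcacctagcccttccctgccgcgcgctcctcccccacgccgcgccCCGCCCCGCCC
GPAM: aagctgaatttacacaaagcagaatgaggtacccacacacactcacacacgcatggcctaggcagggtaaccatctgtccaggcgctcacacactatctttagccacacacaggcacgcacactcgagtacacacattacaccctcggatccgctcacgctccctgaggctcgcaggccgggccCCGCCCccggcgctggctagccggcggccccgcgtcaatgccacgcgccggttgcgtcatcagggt

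GPAT3 had 1 GC box, 18 CpG and 62.4% GC, AGPAT2 had 6 GC boxes, 26 CpG and 77.6% GC, and GPAM had 1 GC box, 20 CpG and 62.0% GC. The median over 35116 promoters was 58.0% GC and 11 CpG, and 42.6% held a GC box. None of these 3 stretches held the CCAAT box (letters CCAAT, in 32.0% of promoters), the TATA box (letters TATAAA, in 10.7%), the E-box (letters CACGTG, in 6.34%) or a sterol regulatory element (letters TCACNCCAC, in 0.883%) on either strand. The table held promoters for 7 of the 10 members.

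Of the other glycerol-3-phosphate acyltransferases, GPAM and GPAT4 were higher and GPAT2 lower on knockdown arrays, each by less than 2-fold. GPAM, the mitochondrial isoform, had a normalized log2 signal of 7.94, 8.38 and 7.92 in si-control and of 8.61, 8.69 and 8.39 in si-C1GALT1-3 cells. Its lowest knockdown array lay just above its highest control array, with means of 8.08 ± 0.26 and 8.57 ± 0.16 (SD, n = 3 each) and a log2 fold change of 0.49 (SE 0.19). Within slides 1, 2 and 3 GPAM differed by 0.67, 0.32 and 0.47 on the log2 scale. With the low-signal region kept in the normalization, although the GPAM spot lies outside it, the log2 fold change was 0.30 (SE 0.33), the difference on slide 2 was -0.25 and si-control replicate 2 lay above every knockdown array.

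GPAT4, the isoform closest in sequence to GPAT3, was measured at the edge of the low-signal region, so that 2 control arrays were read. Its normalized log2 signal was 12.12 and 12.66 in si-control replicates 1 and 3 and 12.77, 12.75 and 12.71 in si-C1GALT1-3 cells. The knockdown arrays lay close together, just above the higher control array, and the log2 fold change was 0.36 (SE 0.21). Within slides 1 and 3 the differences were 0.65 and 0.052, and the log2 fold change was 0.082 without si-control replicate 1 and 0.62 without si-control replicate 3. With the spot in the region kept the log2 fold change was 0.31 (SE 0.19), and the processed signal of that spot, 4656, was near the 5378 and 5217 of the other control arrays. An antisense transcript, GPAT4-AS1, is annotated for this gene.

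GPAT2, a mitochondrial isoform best known from testis, had 3 probes. The brightest, A_33_P3415551, lay in the low-signal region and had a normalized log2 signal of 11.01 and 10.65 in si-control replicates 1 and 3 and of 9.90, 10.04 and 10.35 in si-C1GALT1-3 cells. The knockdown arrays were all lower than both control arrays, with a log2 fold change of -0.73 (SE 0.23) from 2 against 3 arrays. With the region kept it was -0.23 (SE 0.48), since the processed signal of the excluded spot was 432.7 against 2518 and 1222 on the other control arrays.

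A GPAT2 probe outside the region, A_33_P3210671, had a normalized log2 signal of 7.86, 7.85 and 7.99 in si-control and of 7.51, 7.42 and 7.89 in si-C1GALT1-3 cells. On that probe the groups overlapped, because knockdown replicate 3 lay above control replicates 1 and 2, and the log2 fold change was -0.29 (SE 0.17). The remaining probe, A_23_P68240, stayed near background on all arrays, so no fold is given for it. RefSeq lists the pseudogenes GPAT2P1 and GPAT2P2, and whether the probes also read these was not tested.

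**Figure D1:**
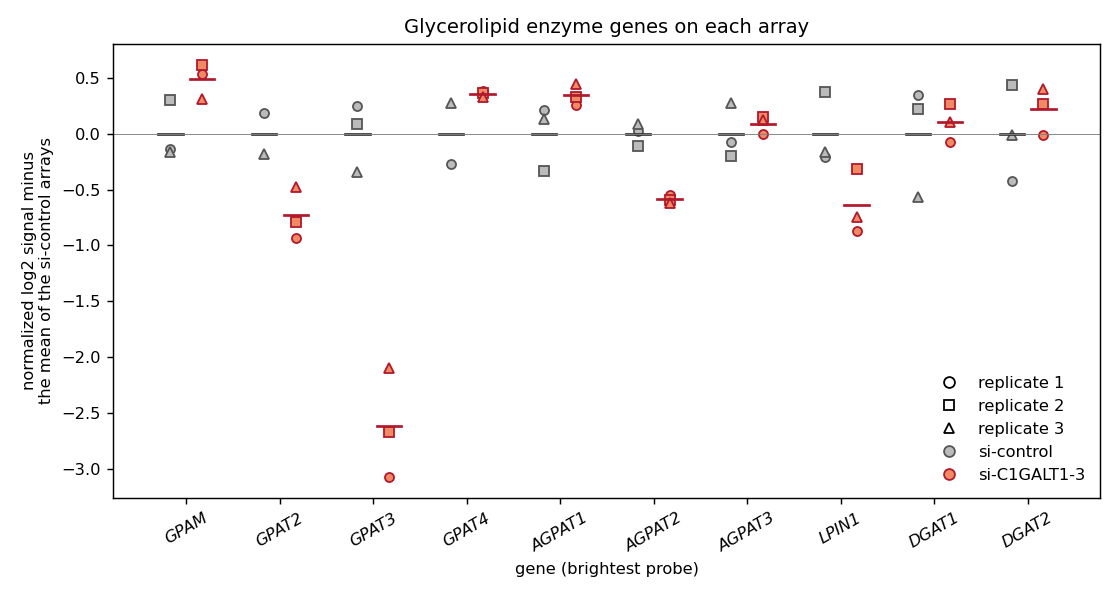
Normalized log2 signal of the brightest probe of each of the 10 genes on each array, drawn as the difference from the mean of that gene's si-control arrays. Grey symbols are si-control and red symbols si-C1GALT1-3 arrays, the symbol shape gives the replicate number and horizontal lines are group means; GPAT3 is the only gene whose knockdown arrays lie more than 2-fold below the control mean, at a mean log2 difference of -2.61.

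Of the sn-2 acyltransferases, AGPAT2 was lower, AGPAT1 slightly higher and AGPAT3 overlapped between groups. AGPAT2, the isoform mutated in a congenital lipodystrophy, had a normalized log2 signal of 13.13, 12.99 and 13.19 in si-control and of 12.55, 12.51 and 12.49 in si-C1GALT1-3 cells. The replicates were tight and the groups well apart, at 13.11 ± 0.10 and 12.52 ± 0.033 (SD, n = 3 each). The log2 fold change was -0.59 (SE 0.13), leaving 66.5% of the control signal, under the 2-fold needed for the call. This difference was 7.65 times the pooled SD, a larger multiple than for GPAT3, because the spread of AGPAT2 was below the median SD over all genes of 0.329 in si-control and 0.229 in si-C1GALT1-3 cells. An SD from 3 arrays per group is imprecise. Set against the SE of the limma fit instead, GPAT3, at -2.61 (SE 0.30), had the larger multiple. Within slides 1, 2 and 3 AGPAT2 differed by -0.58, -0.48 and -0.71.

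AGPAT1, an endoplasmic reticulum isoform, had a normalized log2 signal of 13.95, 13.40 and 13.87 in si-control and of 13.996, 14.07 and 14.19 in si-C1GALT1-3 cells. The groups were separated by a narrow margin, and the log2 fold change of 0.34 (SE 0.19) became 0.18 without si-control replicate 2, with slide differences of 0.048, 0.67 and 0.32. AGPAT3 had 9.58, 9.46 and 9.93 in si-control and 9.65, 9.81 and 9.78 in si-C1GALT1-3 cells. Its knockdown arrays lay inside the range of the controls, its log2 fold change was 0.089 (SE 0.17), and the sign turned to -0.068 (SE 0.17) when the low-signal region was kept.

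LPIN1, which removes phosphate from phosphatidic acid and also acts as a nuclear coactivator, was lower on both of its probes. A_32_P52609 had a normalized log2 signal of 10.80, 11.38 and 10.84 in si-control and of 10.14, 10.69 and 10.26 in si-C1GALT1-3 cells. The highest knockdown array was just below the lowest control array, and replicate 2 was the highest array in both groups. The log2 fold change was -0.64 (SE 0.24), or 64.1% of control, whereas the slides gave nearly the same value each, -0.66, -0.68 and -0.58. The other probe, A_33_P3356070, had 9.04, 9.79 and 9.37 in si-control and 8.32, 8.98 and 8.82 in si-C1GALT1-3 cells, with a log2 fold change of -0.70 (SE 0.27) and slide differences of -0.72, -0.81 and -0.55. Its groups did not overlap either, so the probes gave the same picture.

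**Figure D2:**
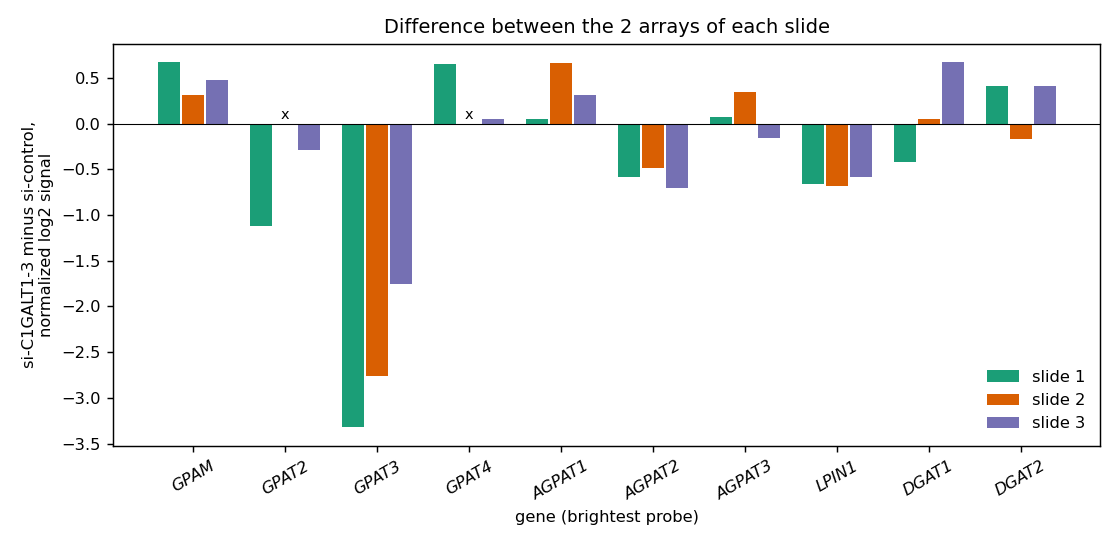
Difference in normalized log2 signal, si-C1GALT1-3 minus si-control, between the arrays of each slide for the brightest probe of each gene. Bars are single differences without error; an x marks slide 2 where the control spot lay in the low-signal region. With the region left out, GPAT3, AGPAT2 and LPIN1 are below 0 and GPAM and AGPAT1 above 0 on all 3 slides (GPAM not when the region is kept), whereas AGPAT3, DGAT1 and DGAT2 change sign between slides.

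The last step of triglyceride synthesis showed no separation between groups. DGAT1, which can also act on other acyl acceptors, had a normalized log2 signal of 13.61, 13.48 and 12.70 in si-control and of 13.19, 13.53 and 13.37 in si-C1GALT1-3 cells on its brightest probe, A_22_P00005087. All knockdown arrays lay within the range of the controls, and the log2 fold change was 0.10 (SE 0.28), with slide differences of -0.42, 0.050 and 0.67. Its other probes gave -0.17 (SE 0.15) and -0.18 (SE 0.23), so the sign differed between probes.

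DGAT2, an enzyme of another protein family with the same reaction, had 9.54, 10.40 and 9.96 in si-control and 9.96, 10.24 and 10.37 in si-C1GALT1-3 cells. Both the highest and the lowest array were controls, and the log2 fold change was 0.22 (SE 0.26). The slide differences were 0.42, -0.17 and 0.41.

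Over the family, 1 of 10 genes passed the call, GPAT3, beside 3.41% of all genes, 1.33% lower and 2.08% higher. Counted by probes, 1 of 15 passed, beside 2.64% of all probes, 0.992% lower and 1.65% higher. With the brightest probe of each gene, groups did not overlap for 7 of 10 members, 4 of them lower (GPAT2, GPAT3, AGPAT2 and LPIN1) and 3 higher (GPAM, GPAT4 and AGPAT1), beside 25.3% of all genes, 11.2% lower and 14% higher. Since GPAT3 was chosen from this contrast, and groups with 2 control arrays separate more easily, nothing is read from these shares. With the low-signal region kept, GPAM and GPAT2 overlapped between groups as well. The median log2 fold change of the 10 genes was 0.095, against 0.0187 over all genes. Signal was well above background wherever read on 14 of the 15.

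**Figure D3:**
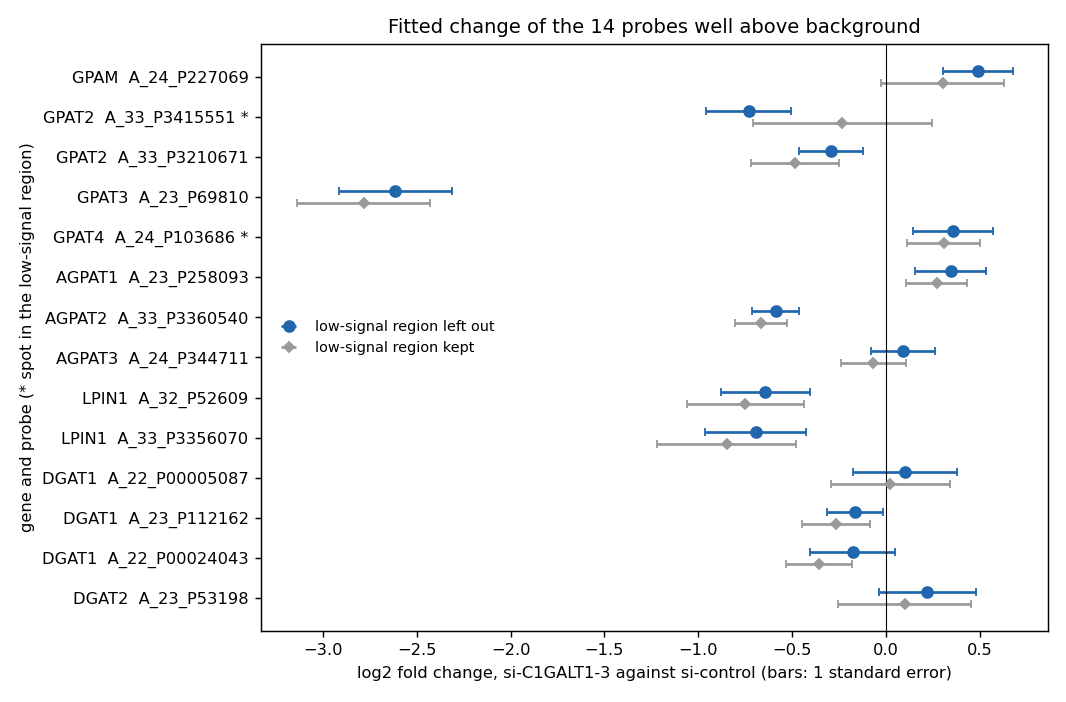
Fitted log2 fold change of the 14 member probes that were well above background, si-C1GALT1-3 against si-control, with bars of 1 standard error. Blue circles leave out the low-signal region of si-control replicate 2, grey diamonds keep it and a star marks a probe inside it; GPAT3 is at -2.61 and -2.78, and the brightest GPAT2 probe moves from -0.73 to -0.23.

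The rest of glycerolipid metabolism was read from lists of 93 further genes with a probe. The call was passed by 4 of them, beside 3.41% of all genes, and nothing is read from that count. Of the 4, GPD1L and GPD2 were lower and CHKB was higher. LPCAT2, which reacylates lysophosphatidylcholine, had no array with signal well above background and so has no fold. Below 0 were 52 genes and above 0 were 41, with a median log2 fold change of -0.0506, and 77 were well above background on all arrays read. A list of 7 genes of glycerol and glycerol-3-phosphate metabolism held glycerol kinase GK, the dehydrogenases GPD1, GPD1L and GPD2, of which GPD2 consumes glycerol-3-phosphate, the substrate of GPAT3, and the glycerol channels AQP3, AQP7 and AQP9. All 7 were below 0, with a median log2 fold change of -0.44, beside 47.6% of all genes below 0. By the call 2 of the 7 fell, beside 1.33% of all genes. GPD1 at -0.14 (SE 0.18), AQP3 at -0.14 (SE 0.24) and AQP7 at -0.038 (SE 0.21) lay within 1 SE of 0. Nothing is therefore read from the count of signs. AQP9 was well above background on only 1 array, and the 6 other genes had a median of -0.29, or -0.18 for all 7 with normexp background correction. The count below 0 was 6 without si-control replicate 2, 6 without si-C1GALT1-3 replicate 1 and 5 without si-C1GALT1-3 replicate 3, and it was 6 without normalization or with normexp. Another list, of acylglycerol and sterol acyltransferases, had 7 of 8 genes below 0 and a median of -0.57, with 2 of the 8 well above background on all arrays read.

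GPD1L, a glycerol-3-phosphate dehydrogenase of the cytosol, had a normalized log2 signal of 9.24, 9.79 and 10.31 in si-control and of 8.49, 8.43 and 8.14 in si-C1GALT1-3 cells. Every knockdown array was below every control array, and the log2 fold change was -1.43 (SE 0.30; limma, adjusted p = 0.151). GPD2, the mitochondrial glycerol-3-phosphate dehydrogenase, had 10.92, 11.49 and 11.92 in si-control and 10.36, 10.49 and 10.25 in si-C1GALT1-3 cells, again without overlap, with a log2 fold change of -1.07 (SE 0.27; limma, adjusted p = 0.204). Another GPD2 probe, read on 2 control arrays, had a log2 fold change of -1.16 (SE 0.43) and did not pass the call. CHKB, a choline kinase of phosphatidylcholine synthesis, rose from 10.63 and 10.81 in the 2 control arrays read to 11.88, 11.93 and 11.63, a log2 fold change of 1.1 (SE 0.18; limma, adjusted p = 0.134). Its spot lay in the low-signal region. With the region kept the log2 fold change of CHKB was 2.68 (SE 1.35), and it did not pass the call.

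None of these calls held with the slide as a replicate block, although the log2 fold changes were about as large, -1.43 for GPD1L, -1.07 for GPD2 and 1.04 for CHKB. In that limma fit the unadjusted p was 0.0155, 0.0194 and 0.0221 for these genes and 0.0101 for LPCAT2, over the 0.01 of the call, and the adjusted p was 0.220, 0.230, 0.235 and 0.205. Without single arrays GPD1L lay between -1.71 and -1.16 on the log2 scale and kept its call only without si-control replicates 1 or 3, and GPD2 lay between -1.34 and -0.83 and kept it only without si-control replicate 1. CHKB lay between 1.01 and 1.18 and lost its call without si-control replicate 1 or si-C1GALT1-3 replicates 1 or 2.

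In the lists where no gene passed, the largest differences either way among genes well above background on all 6 arrays were as follows. Near the GPAT and AGPAT steps, AGPS of ether lipid synthesis was at a log2 fold change of 0.48 (SE 0.26) and GNPAT, which acylates dihydroxyacetone phosphate, at -0.27 (SE 0.24). Of the further AGPAT enzymes, AGPAT4 was at 0.94 (SE 0.35) and AGPAT5 at -0.95 (SE 0.45), and of the phosphatidic acid phosphatases PLPP3 was at 0.85 (SE 0.14) and PLPP2 at -0.073 (SE 0.16). PLPP3 was the clearest of these, with knockdown arrays all above the controls, but it lay under 2-fold (limma, adjusted p = 0.110). Among acyltransferases of other acceptors, MOGAT3 was at 0.64 (SE 0.28) and SOAT1, which esterifies cholesterol, at -1.30 (SE 0.39; limma, adjusted p = 0.254).

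For storage and breakdown of triglyceride, ABHD6, a monoacylglycerol lipase, was at 1.19 (SE 0.37; limma, adjusted p = 0.267) and CIDEA, a lipid droplet protein, at -0.40 (SE 0.25). The acyl-CoA synthetase ACSL5, an enzyme that activates fatty acids, was at -0.32 (SE 0.76), and no gene of its list read on all 6 arrays was above 0. Of the 5 genes of that list 4 were below 0, and ACSL1, with 2 control arrays read, was at 0.50 (SE 0.17). CDIPT, which makes phosphatidylinositol, was at 0.40 (SE 0.18) and the mitochondrial phosphatase PTPMT1 at -0.16 (SE 0.17). The diacylglycerol kinases DGKA and DGKD were at 0.33 (SE 0.15) and -0.54 (SE 0.25). Of the lipid transcription factors MLXIPL was at 0.45 (SE 0.77) and PPARG, the regulator of adipocyte differentiation, at -0.46 (SE 0.19).

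**Figure D4:**
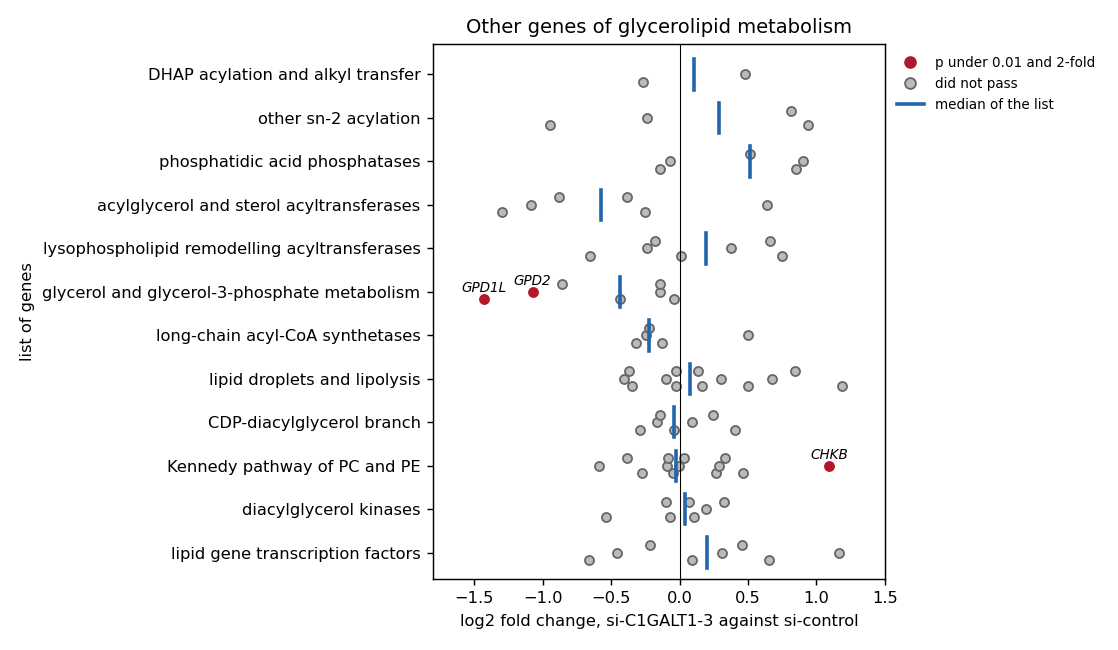
Log2 fold change, si-C1GALT1-3 against si-control, of the other genes of glycerolipid metabolism on their brightest probe, by list; genes not well above background on any array are left out of the points. Red points passed p under 0.01 and 2-fold and are named (GPD1L, GPD2, CHKB), grey points did not pass, and blue lines are list medians over all measured genes; the list of glycerol and glycerol-3-phosphate metabolism lies wholly below 0.

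By Pearson correlation of normalized log2 signal over the 6 arrays, among 18647 probes well above background throughout, the genes most like GPAT3 were FAM241B at 0.9946, TMEM239 at 0.9926, SCYL2 at 0.9891, SLC35E1 at 0.9885 and EPHA10 at 0.9865. Their log2 fold changes were -2.09, -0.56, -0.63, -0.57 and -0.95 in that order. With 6 arrays in 2 groups, a high correlation mainly reflects the shared difference between groups, and these genes were picked as the highest of many.

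The genes taken as neighbours of GPAT3 were the nearest on chromosome 4 in RefSeq order that had a tested probe. Those with a fold had smaller differences than GPAT3, and a cause was not tested. On one side, HELQ, a DNA helicase, was at a log2 fold change of 0.33 (SE 0.13), MRPS18C, a mitochondrial ribosomal protein, at 0.12 (SE 0.12) and ABRAXAS1, a BRCA1-complex subunit, at 0.044 (SE 0.19). On the other, LINC02994 was at -0.39 (SE 0.13) and NKX6-1 was well above background on only 1 array of each group. CDS1, which turns phosphatidic acid into CDP-diacylglycerol, was at -0.29 (SE 0.23) with 2 control arrays read. None of these 6 genes passed the call.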

How the data were processed

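RNA of 6 AGS samples was labelled with Alexa555 and hybridised to 1-colour Agilent human expression arrays. The authors deposited Agilent Feature Extraction 10.5.1.1 output per array, with spot intensity that the software had corrected for background and trends within the array, and a series table of background-subtracted intensity equal to the scanner column within 4.8e-09. Neither was normalized between arrays.

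From the deposited intensity, log2 of the processed signal was taken. Control spots, spots called non-uniform or population outliers (100 to 424 per array) and the low-signal region of si-control replicate 2, given in the rule for the members, were left out. The arrays were quantile normalized, as the study's methods state, spots of a probe averaged, and 58193 probes fitted with limma 3.58.1 (lmFit, eBayes) in R 4.3.3. A call needed p under 0.01 and 2-fold, with Benjamini-Hochberg adjustment across the whole array. By that call 1538 probes (2.64%) differed, and 49 had an adjusted p under 0.05, a number that fell to 0 without any single array. A gene was read from its probe of highest mean log2 signal. Probes were named through their accession in a RefSeq table, which gave 31104 of 58201 a symbol. Values not well above background in both groups have no fold. The scripts were tested on simulated data.

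The family and its gene lists were chosen with earlier results of these data known. Genes named are all members, C1GALT1, the called genes of each list or else its largest difference either way among genes well above background on all 6 arrays, and the 5 genes most like GPAT3. The genes next to GPAT3 and SFTPD, beside it in rank, were added after their values were seen. Deviations of same-numbered arrays correlated at 0.198, 0.215 and 0.329, all above those of other pairs, and they shared a slide, so the replicate number marks a pair. The labels do not say whether samples were separate cultures, so p-values measure only the spread between these samples. The number of arrays limits the precision.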

Additional observations from a re-analysis of the deposited data

How the results depend on the processing

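GPAT3 passed the call in 16 of 16 refitted settings, with log2 fold changes from -2.87 (without si-C1GALT1-3 replicate 3) to -2.10 (normexp background correction). It was the 1 member called in each, leaving out single arrays included (1 to 1), except that with an adjusted p under 0.05 in place of p under 0.01 the members called were 0 (5 at unadjusted p under 0.05). GPAT3 did pass that adjusted threshold among probes well above background in a group and with normexp. With the series table the 1 member past it was AGPAT2, at a log2 fold change of -0.60 (SE 0.036), under 2-fold. AGPAT3 and DGAT1 changed sign in 2 of 17 settings each, and the other members kept their sign. The pathway genes called, 4 as reported, were 0 with the replicate block (limma; 19 at unadjusted p under 0.05), 0 with the adjusted p (15 at unadjusted p under 0.05), 2 with Student's t-test, which the methods name for other experiments, 2 with the median over probes, and from 0 to 7 when single arrays were left out. They were 0 without knockdown array 2, 1 without knockdown array 1 or control array 2, and 7 without control array 3. The 1538 probes called became 896 with the t-test, of which 2 also had an adjusted p under 0.05, 920 with normexp, 49 with the adjusted p (0 with any single array left out, with the block, the region kept, outlier spots kept, no normalization or the trend prior, and 541 among probes well above background in a group), 1604 with the block and 1126 to 1781 without single arrays. The higher share of calls was 62.5%, against 40.2% with the low-signal region kept (1180 probes, 860 shared) and 72.6% without normalization. C1GALT1 passed only when probes not well above background in a group were left out (-1.0), and ranged from -1.20 to -0.75 without single arrays. Normexp used the median spot signal, whereas the reported values rest on the processed signal. Causes were not tested. Single-probe genes, GPAT3 among them, have no check by another probe.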
